A study of Mus musculus with 6 samples.

Results

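The 10 cell polarity complex genes examined here are Crb3, Pard3, Pard6b, Prkci, Prkcz, Llgl1, Llgl2, Scrib, Dlg1 and Ezr. They were found by symbol in a table of 23478 genes, all 10 were present, and all 10 passed the filter on low counts. RNA had been sequenced from cells sorted from mouse trachea at embryonic day 13.5, with 3 libraries of muscle and 3 of epithelium. All 6 libraries carry the genotype Bmp4 f/f; gamma SMA eGFP, that is, floxed Bmp4 alleles, with no Cre named in the labels, and a GFP reporter of gamma smooth muscle actin. Muscle was taken as GFP-positive cells and epithelium as cells stained for the surface protein Epcam, and both groups are labelled as controls. The muscle group therefore holds whichever cells switch on that actin promoter, and the sources used here do not state whether a library came from 1 embryo or several. The values compare the sorted populations with each other, and the p-values measure only the spread between these libraries.

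Epithelial cells keep an apical surface that faces the lumen apart from a basolateral surface that faces neighbours and matrix. Crumbs proteins and the Par complex, in which the kinases of the atypical PKC family act with Pard6 and Pard3, mark the apical side. The Scribble module of Scrib, Dlg and Lgl proteins marks the basolateral side, and both sides exclude each other, in part through phosphorylation of Lgl by atypical PKC. Ezrin links apical membrane proteins to actin. In the embryonic trachea these proteins act in a tubular epithelium with a lumen, while smooth muscle cells have no apical surface of this kind, although several of the same proteins also serve migration and adhesion in non-epithelial cells.

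Of the 10 genes, 6 were higher in epithelium (Crb3, Ezr, Llgl2, Prkci, Prkcz, Pard6b), none was higher in muscle and 4 did not pass the test (Pard3, Llgl1, Scrib, Dlg1). A gene was counted as higher where the adjusted p of edgeR's quasi-likelihood test was under 0.05. Among all 19375 genes tested, 4.11% were called higher in epithelium and 6.58% higher in muscle, 10.7% in either direction. The 10 genes were chosen with earlier results of these data known, so the comparison with these shares describes them and is not a test. The 6 genes were the same at an unadjusted p under 0.05 (8.18% of all tested genes in that direction and 13.5% toward muscle), with DESeq2 and with limma-voom, and in each of these counts no member was higher in muscle. The groups did not overlap in the 6 called genes and overlapped in the other 4, against 26.9% of all tested genes without overlap and 10.5% without overlap and higher in epithelium. Levels are given below as CPM, counts scaled to the library total after TMM normalization. The median log2 fold change, epithelium over muscle, was 2.40 over the 10 genes and 0.10 over all tested genes.

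**Figure D1:**
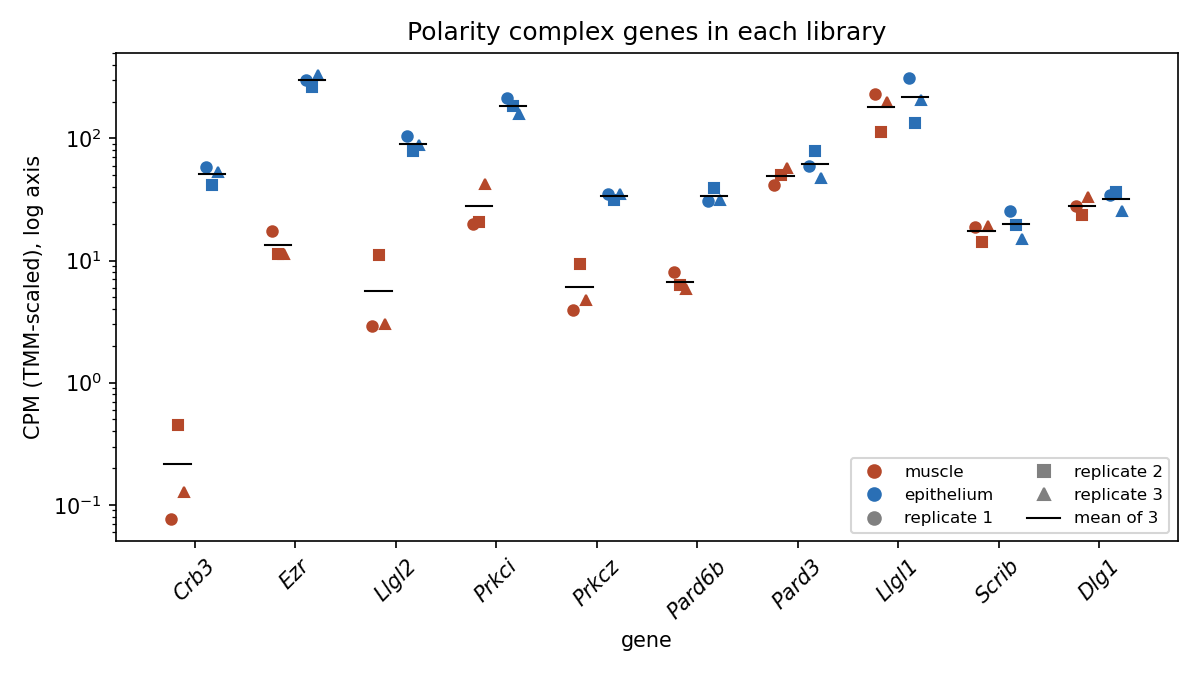
Level of each polarity gene in each library, in CPM on a log axis; symbols give the replicate, colours the population and bars the mean of 3. The 3 epithelial points of Crb3, Ezr, Llgl2, Prkci, Prkcz and Pard6b lie above the 3 muscle points, and those of Pard3, Llgl1, Scrib and Dlg1 intermingle with them.

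The sorted groups and the libraries bear on these values as follows. All 8 smooth muscle markers were higher in muscle and all 8 epithelial markers were higher in epithelium. These lists include Actg2, the gene of gamma smooth muscle actin, and Epcam, whose direction was largely set by the sort. Summed CPM of smooth muscle markers was 4001 to 17077 in muscle. Each of the 8 was lowest there in replicate 2. Actg2 had 2438, 403 and 2786 CPM and Myh11 2634, 332 and 2605 CPM in muscle replicates 1 to 3. The cause was not tested. Total counts ran from 11847432 to 54848820 per library. Epithelial markers in the muscle libraries stood at 0.07% to 2.23% of their epithelial mean. Summed CPM of endothelial markers was 39.2 to 58.0 in muscle and 1.17 to 49.5 in epithelium, of immune markers 2.81 to 38.5 and 3.59 to 29.8, and of neural and glial markers 31.5 to 55.4 and 27.1 to 62.4. No gene of these 3 lists (6 markers each) passed the test. Tek made up most of the endothelial sum in muscle, at 34.6, 26.6 and 32.9 CPM in replicates 1 to 3. The next endothelial marker, Kdr, had 3.69, 12.1 and 9.88 CPM there. Of 5 mesothelial markers 1 was higher in epithelium, Krt19, which epithelium also expresses, and of 5 erythroid markers none was called and both Hba-a1 and Hbb-bt had no count in any library. Olfactory and vomeronasal receptor genes, which these cells are not known to use, had a mean of 0.61, 1.25 and 0.44 CPM per gene in muscle replicate 2 and epithelium replicates 2 and 3, and at most 0.03 in the other 3 libraries. Muscle replicate 2 and epithelium replicates 2 and 3 are called below the libraries with more background counts. The headers' library identifiers, read here as dates, set replicate 2 of both groups (day 3 of month 9) apart from the other 4 libraries (day 16). In bulk RNA fewer expressing cells and less RNA per cell cannot be told apart.

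Promoter sequences are shown first for the called genes whose promoter holds an E-box of the form CAGGTG, the hexamer bound by the Snail and Zeb repressors, factors known to act on Crb3 and other polarity genes in epithelial-mesenchymal transition. The window was the 250 bases before the most 5′ RefSeq start (GRCm38.p6), available for 8 of the 10 genes and not for Llgl2 and Scrib. CAGGTG was searched on both strands, that is, also as CACCTG. It occurred 3 times in the Crb3 window, 2 times in that of Prkcz and 2 times in that of Pard6b, and not in those of Prkci, Ezr, Pard3, Llgl1 and Dlg1. Of 27025 promoters of the same length, 17.1% held at least 1, 2.04% at least 2 and 0.233% at least 3. Each sequence is written 5′ to 3′ along the gene's strand, with the hexamer in capitals. A match describes the letters only, and binding was not measured. For Pard6b the window is chr2:168080754-168081003 on the plus strand, for Prkcz chr4:155361429-155361678 on the minus strand, and for Crb3 the part of it before the first GENCODE exon that falls in the window is chr17:57061951-57062140 on the plus strand. That Crb3 stretch lies inside the annotated gene, whose first exon is further upstream.
Pard6b: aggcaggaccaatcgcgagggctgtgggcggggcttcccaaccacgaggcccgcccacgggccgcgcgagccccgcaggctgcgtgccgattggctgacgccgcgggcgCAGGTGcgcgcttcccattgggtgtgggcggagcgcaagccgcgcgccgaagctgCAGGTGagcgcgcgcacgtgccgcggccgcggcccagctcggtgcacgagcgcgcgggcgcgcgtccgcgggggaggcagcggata
Prkcz: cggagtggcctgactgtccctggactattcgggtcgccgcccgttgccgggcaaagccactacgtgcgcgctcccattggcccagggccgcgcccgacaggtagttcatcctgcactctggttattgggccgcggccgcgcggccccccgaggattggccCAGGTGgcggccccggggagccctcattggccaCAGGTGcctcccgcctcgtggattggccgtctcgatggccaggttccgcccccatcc
Crb3: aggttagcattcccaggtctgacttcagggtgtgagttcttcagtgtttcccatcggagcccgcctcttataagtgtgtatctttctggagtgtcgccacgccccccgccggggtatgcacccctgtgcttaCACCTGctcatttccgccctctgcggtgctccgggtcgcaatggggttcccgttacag
Crb3 hexamer 63 bases before the start: gggttcccgttaCAGGTGctctggcggcgc
Crb3 hexamer 7 bases before the start: ctcagccaggctCAGGTGc

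The hexamers began 118, 63 and 7 bases before the start in Crb3, 141 and 86 in Pard6b and 90 and 57 in Prkcz. The last pair of Crb3 sites is shown as short stretches because they touch a GENCODE exon. The windows of the 8 genes ranged in GC content from 46.0% in Dlg1 to 79.2% in Pard3, against a median of 52.0% over all promoters. The shares of all promoters with the hexamer were not matched for GC content.

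Crb3 encodes the short Crumbs protein of epithelia, an apical transmembrane protein (chr17:57059105-57065918, plus strand, GRCm38). It had 0.0760, 0.449 and 0.126 CPM in muscle replicates 1 to 3 and 58.9, 41.7 and 53.1 CPM in epithelium replicates 1 to 3. Every epithelial library was far above every muscle library, and the 3 muscle libraries together held 16 Crb3 counts. This was a 255-fold difference, 7.99 ± 0.56 (SE) as a log2 fold change, with an adjusted p of 0.00011 in edgeR. Of the 10 genes it changed the most. The muscle value is set by few counts: 2, 9 and 5 in replicates 1 to 3. The highest was in replicate 2, the muscle library with more background counts and the lowest smooth muscle markers. Without muscle replicate 2 the log2 fold change was 8.87. Crb3 in muscle stood at 0.15%, 0.88% and 0.25% of its epithelial mean, within the range of the 8 epithelial markers in muscle replicates 1 and 2 and below all 8 in replicate 3, where the lowest was Epcam at 0.29%.

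The genes of the atypical PKC kinases, Prkci (chr3:30995747-31052959, plus strand) and Prkcz (chr4:155260129-155361361, minus strand), were both higher in epithelium. Prkci had 19.96, 20.6 and 42.6 CPM in the muscle libraries and 216, 183 and 159 CPM in the epithelial ones. Muscle replicate 3 was the highest of the muscle libraries and stayed far under the lowest epithelial value. Prkci was 6.69-fold higher in epithelium, 2.74 ± 0.35 on the log2 scale (adjusted p = 0.0016, edgeR). Prkcz had 3.95, 9.44 and 4.73 CPM in muscle and 35.1, 31.1 and 35.0 CPM in epithelium. Its epithelial libraries were the closest to each other of all 10 genes, at 1.13 for the highest over the lowest, while muscle replicate 2 stood above the other muscle libraries. Prkcz was 5.61-fold higher in epithelium, 2.49 ± 0.37 on the log2 scale (adjusted p = 0.0030, edgeR) and 2.95 without muscle replicate 2.

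Their scaffold partners in the Par complex divided. Pard6b, the adaptor that binds atypical PKC and Cdc42 (chr2:168081004-168101203, plus strand), had 8.06, 6.29 and 5.86 CPM in muscle and 30.9, 39.0 and 31.2 CPM in epithelium. The groups were well apart, by 2.32 ± 0.27 on the log2 scale (adjusted p = 0.0010, edgeR). Pard3, the multi-PDZ scaffold that recruits the complex to junctions (chr8:127063893-127612286, plus strand), had 41.7, 50.4 and 57.1 CPM in muscle and 59.7, 78.9 and 47.1 CPM in epithelium. Epithelium replicate 3 lay among the muscle libraries, and the group means differed by less than the SD of the epithelial group. Pard3 was at 0.31 ± 0.26 on the log2 scale (adjusted p = 0.67, edgeR), with a 95% interval from -0.28 to 0.91.

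Ezr encodes ezrin, the linker between apical membrane proteins and the actin cortex (chr17:6738041-6782784, minus strand). It had 17.6, 11.4 and 11.4 CPM in muscle and 304, 264 and 330 CPM in epithelium. Both groups were tight and far apart. Ezr was 22.2-fold higher in epithelium (log2 fold change 4.47 ± 0.30), with an adjusted p of 9.6e-05 in edgeR, the lowest of the 10 genes. Only 4 of its exon bases are shared with an exon of Sytl3 on the opposite strand.

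The basolateral module held 1 called gene of 4, Llgl2. The Lgl proteins are substrates of atypical PKC and hold back the apical domain. Llgl2 (chr11:115824049-115855780, plus strand) had 2.93, 11.0 and 3.03 CPM in muscle and 105, 79.0 and 88.3 CPM in epithelium. Muscle replicate 2 had the most of it in muscle and was still far below the lowest epithelial library. That replicate was the muscle library with more background counts and the lowest smooth muscle markers. Llgl2 differed by 4.02 ± 0.54 on the log2 scale (adjusted p = 0.0020, edgeR), and by 4.92 without muscle replicate 2. Its paralogue Llgl1 (chr11:60699723-60714186, plus strand) had 231, 112 and 200 CPM in muscle and 311, 133 and 208 CPM in epithelium. In both groups replicate 2 had the least, and the groups overlapped. On the log2 scale Llgl1 differed by 0.26 ± 0.37 (adjusted p = 0.87, edgeR; 95% interval from -0.59 to 1.11), and 1.00% of its exon bases overlap Flii on the opposite strand.

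Scrib and Dlg1 encode the large PDZ scaffolds of the module. Scrib (chr15:76047158-76069784, minus strand) had 19.0, 14.1 and 19.2 CPM in muscle and 25.4, 19.6 and 15.0 CPM in epithelium. Dlg1 (chr16:31663443-31875129, plus strand) had 28.1, 23.6 and 32.9 CPM in muscle and 34.7, 36.8 and 25.3 CPM in epithelium. For both genes epithelium replicate 3 lay among the muscle libraries. Scrib differed by 0.20 ± 0.29 on the log2 scale (adjusted p = 0.88, edgeR; 95% interval from -0.46 to 0.86). Dlg1 differed by 0.19 ± 0.25 (adjusted p = 0.85, edgeR; 95% interval from -0.38 to 0.76). These intervals, and those of Pard3 and Llgl1, leave room for differences in either direction, up to 1.11 on the log2 scale toward epithelium for Llgl1. A difference as large as that of any called member lies outside them.

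**Figure D2:**
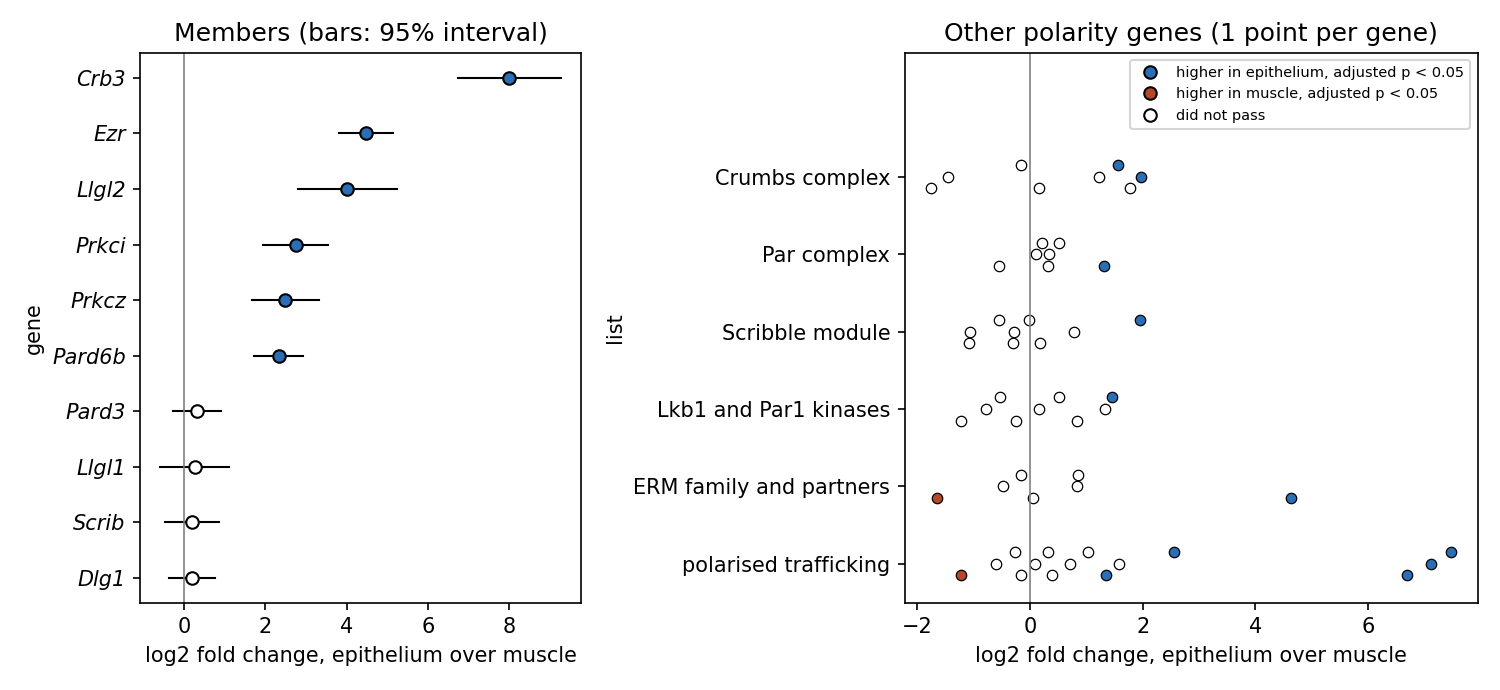
Left, log2 fold change (epithelium over muscle) of the 10 polarity genes with 95% intervals; right, the same for 55 other polarity genes by list, 1 point per gene. Filled points passed an adjusted p under 0.05 in edgeR: the 6 called members run from 2.32 (Pard6b) to 7.99 (Crb3), and the intervals of the other 4 include 0.

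The order of the genes within a population was compared per kilobase of exon, since longer genes collect more counts. In epithelium Ezr was first with 94.5 ± 10.5 CPM per kilobase (SD, n = 3), followed by Llgl1 (49.5 ± 20.4), Prkci (39.5 ± 6.15), Crb3 (32.8 ± 5.60) and Llgl2 (25.0 ± 3.62). From Llgl1 to Llgl2 each neighbour in that order overlapped the next in its range over libraries. Pard6b (9.92 ± 1.34), Pard3 (7.08 ± 1.83), Prkcz (6.96 ± 0.48), Dlg1 (4.38 ± 0.83) and Scrib (3.55 ± 0.93) made up the lower group, in which Pard3 overlapped Prkcz and Dlg1 overlapped Scrib.

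In muscle Llgl1 stood alone at the top with 41.3 ± 14.0 CPM per kilobase (SD, n = 3), well above Prkci at 5.89 ± 2.74. Prkci, Pard3 (5.68 ± 0.88), Ezr (4.25 ± 1.14), Dlg1 (3.83 ± 0.63) and Scrib (3.10 ± 0.51) each overlapped the next in range. Below them came Pard6b (1.98 ± 0.34), Llgl2 (1.56 ± 1.28) and Prkcz (1.25 ± 0.61), which also overlapped in that order, and Crb3 was last at 0.14 ± 0.13. Ezr thus ranked 1 of 10 in epithelium and 4 of 10 in muscle, and Crb3 ranked 4 and 10. Lengths are from GENCODE and not from the annotation used for counting. With the longest coding transcript as length, an alternative chosen after seeing the data, Crb3 (42.5 CPM per kilobase) came before Prkci in epithelium and Pard3 (8.55) before Prkci in muscle. Pard3 (10.6) then also came before Pard6b in epithelium, and Dlg1 (4.59) before Ezr in muscle, where Ezr ranked 5.

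The 6 called genes differed in how much of the epithelial level was found in muscle. Crb3 was at 0.15% to 0.88% of its epithelial mean, the only member that did not exceed the highest epithelial marker in its library, Krt18 at 1.51% to 2.23%. Ezr was at 3.80% to 5.88% and Llgl2 at 3.23% to 12.2%. Prkci was at 10.7% to 22.9%, Prkcz at 11.7% to 28.0% and Pard6b at 17.4% to 23.9%, all above every epithelial marker in each of the 3 muscle libraries. The uncalled genes stood at 51.8% to 106%. The part of epithelial cells carried into the muscle sort was not tested.

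**Figure D3:**
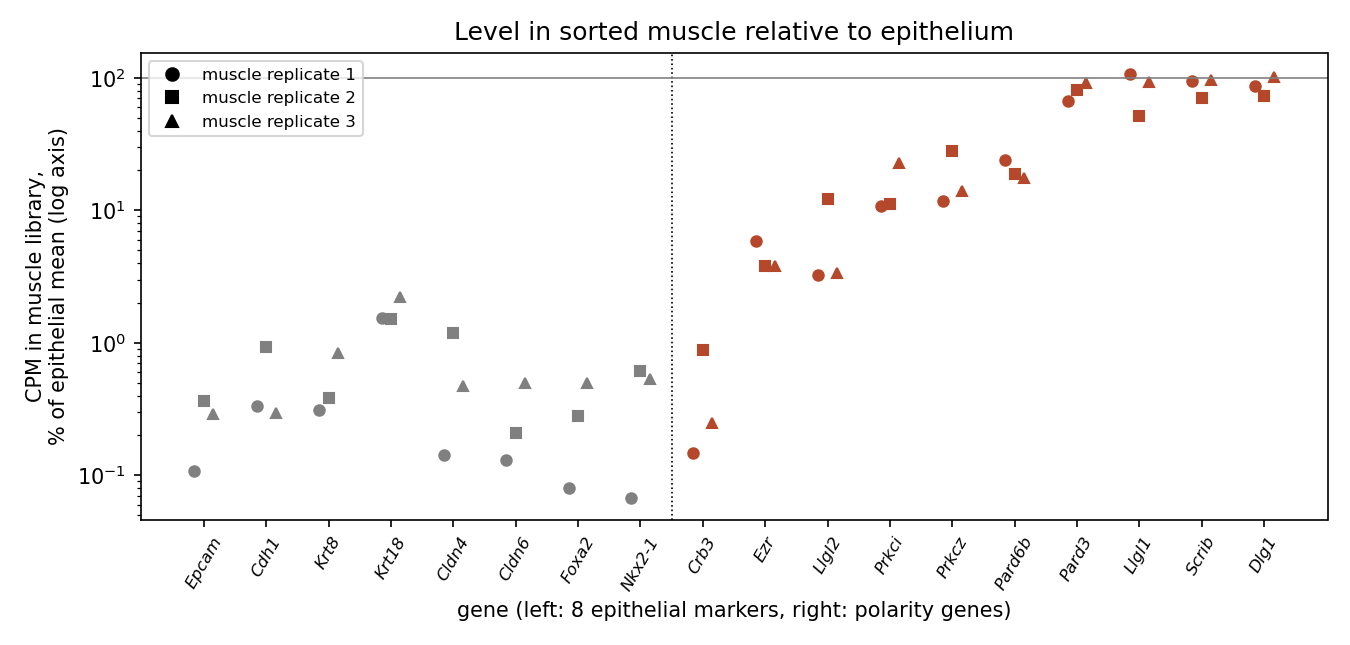
CPM of each gene in each muscle library as a percent of its mean in epithelium (log axis), for 8 epithelial markers (grey) and the 10 polarity genes (red), with the line at 100%. Crb3 lies at the height of the markers and in replicate 3 below all 8, and Ezr and Llgl2 lie above them. Prkci, Prkcz and Pard6b are near 10% to 28%, and the 4 uncalled genes are at 51.8% to 106%.

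Paralogues within a library were compared as ratios, in which library size and gene length cancel between the groups. 8 pairs were compared by an exact two-sided permutation test over the 6 libraries, which cannot give a p under 0.10. Llgl2, Ezr, Pard6b and Crb3 were called and the paralogues set against them were not. The ratios of these pairs therefore largely restate the difference of the called gene and are not separate support for it. In muscle the log2 ratio of Llgl2 to Llgl1 was -6.29, -3.35 and -6.04, and in epithelium it was -1.57, -0.75 and -1.23. Llgl2 made up 1.51%, 10.6% and 1.80% of the per-kilobase level of the pair in muscle and 29.0%, 41.9% and 34.0% in epithelium, so that Llgl1 was the more abundant of the pair in every library. The difference was 4.04 on the log2 scale (exact permutation p = 0.10, 0.13 adjusted over the 8 pairs).

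Ezrin has the close relatives moesin (Msn) and radixin (Rdx), which link membrane to actin in most cell types. The log2 ratio of Ezr to Msn was -3.89, -4.42 and -4.48 in muscle and 0.52, 0.93 and 0.78 in epithelium. Against Rdx it was -3.44, -3.85 and -4.49 in muscle and 0.63, 0.72 and 0.81 in epithelium. Per kilobase, Ezr made up 5.16% to 7.56% of Ezr and Msn together in muscle and 63.6% to 69.8% in epithelium. The major form of either pair thus differed between the populations, with no overlap, by 5.01 and 4.64 on the log2 scale (exact permutation p = 0.10 each, 0.13 adjusted). Msn (log2 fold change -0.49 ± 0.24, adjusted p = 0.30, edgeR) and Rdx (-0.16 ± 0.25, adjusted p = 0.89) did not pass the test themselves.

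Pard6b rose against Pard6g, another adaptor of the same kind, by 2.11 on the log2 scale without overlap (exact permutation p = 0.10), yet Pard6g remained the more abundant per kilobase in all 6 libraries. Pard6b made up 5.30% to 9.46% of that pair in muscle and 20.8% to 35.2% in epithelium. Pard6a, a further gene of the family, was also above Pard6b. Its mean was 15.1 CPM per kilobase in muscle and 19.0 in epithelium, against 1.98 and 9.92 for Pard6b. Crb3 differed against Crb2, another Crumbs gene, by 5.56 (exact permutation p = 0.10), but Crb2 had at most 7.49 CPM in any library and in each group was highest in a library with more background counts. Dlg1 against Dlg5 differed by 0.51 without overlap (exact permutation p = 0.10). The ratio of Prkci to Prkcz, 2.21 ± 1.03 in muscle and 2.45 ± 0.24 in epithelium (SD, n = 3), differed by less than the spread of the muscle libraries (exact permutation p = 0.80), as both kinase genes were higher in epithelium. Pard3 and Pard3b kept a log2 ratio of 1.44 ± 0.07 in muscle and 1.41 ± 0.16 in epithelium (exact permutation p = 1.00).

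**Figure D4:**
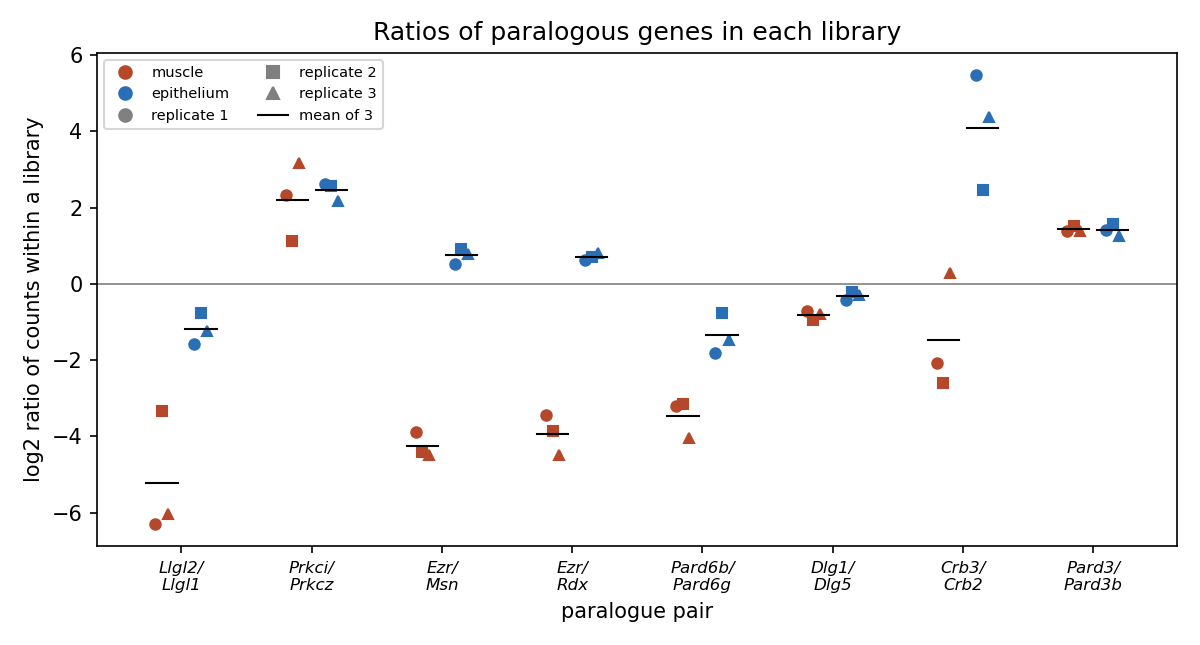
Log2 ratio of the counts of 2 paralogues within each library, for 8 pairs; symbols give the replicate, colours the population and bars the mean of 3. The populations do not overlap in 6 pairs, and they overlap for Prkci over Prkcz and Pard3 over Pard3b; the line at 0 is equal counts.

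The rest of the polarity machinery was taken from 6 lists of 55 genes, all in the table and all tested. 11 of them (20%) were higher in epithelium and 2 higher in muscle, against 4.11% and 6.58% of all tested genes, and their median log2 fold change was 0.21. At an unadjusted p under 0.05 there were 14 and 5, against 8.18% and 13.5% of all tested genes. The groups did not overlap in 26 of the 55, against 26.9% of all tested genes. The lists were chosen with earlier results of these data known, so these shares describe the lists and do not test them.

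Among 8 other genes of the Crumbs complex, 2 were higher in epithelium and none in muscle. Patj, listed in the table as Inadl, is the multi-PDZ scaffold that binds Pals1, and had 37.3, 26.6 and 34.2 CPM in muscle and 169.6, 85.3 and 128 CPM in epithelium. Patj was 3.90-fold higher in epithelium, 1.96 ± 0.30 on the log2 scale (adjusted p = 0.0039, edgeR). Epb41l5, a FERM protein that limits Crumbs activity, differed by 1.56 ± 0.26 (adjusted p = 0.0053, edgeR). Mpp5, which encodes Pals1, the link between Crumbs and Patj, had a value of 0.17 ± 0.22 (adjusted p = 0.86) and overlapping groups. Of the 3 proteins that form the core of the complex, the genes of the outer ones, Crb3 and Patj, were called and that of the linker was not.

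Among 7 other genes of the Par complex and its GTPase, 1 was higher in epithelium and none in muscle. Tiam1, an exchange factor for Rac that binds Pard3, had 8.10, 12.7 and 10.3 CPM in muscle and 22.4, 30.1 and 24.6 CPM in epithelium (log2 fold change 1.31 ± 0.29, adjusted p = 0.020, edgeR). Leaving out muscle replicate 1 or 3 or epithelium replicate 2 or 3 ended this call, at an adjusted p of up to 0.071. Cdc42, the GTPase that activates the complex, was at -0.55 ± 0.25 on the log2 scale (adjusted p = 0.26), and Pard6g had 0.21 ± 0.29 (adjusted p = 0.87).

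Among 9 other genes of the Scribble module, only Lrrc1 was called, higher in epithelium. Lrrc1 encodes Lano, a relative of Scrib with leucine-rich repeats, and had 3.23, 5.29 and 7.63 CPM in muscle and 29.0, 16.2 and 17.5 CPM in epithelium. On the log2 scale Lrrc1 differed by 1.96 ± 0.43 (adjusted p = 0.019, edgeR), and the call was lost without muscle replicate 1 (adjusted p = 0.060) or epithelium replicate 1 (0.080). Of 9 genes of the Lkb1 and Par1 kinases, only Mark2, a Par1 kinase of the lateral membrane, was called. It was higher in epithelium (1.45 ± 0.32, adjusted p = 0.019), and the call was lost without muscle replicate 1 (0.078) or epithelium replicate 1 (0.058), and at 0.050 within the 4 libraries of the later header date. Stk11, which encodes Lkb1, had 0.17 ± 0.36 (adjusted p = 0.92).

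Of 7 other genes around ezrin, 1 was higher in epithelium and 1 in muscle. Podxl, an apical sialomucin that ezrin anchors through its scaffold partners, had 0.0760, 1.40 and 1.87 CPM in muscle and 41.9, 17.0 and 24.8 CPM in epithelium (log2 fold change 4.63 ± 0.88, adjusted p = 0.010, edgeR). Without muscle replicate 3 the value of Podxl was 5.28. Over 15 alternative fits it ran from 4.07 (without muscle replicate 1) to 5.35 (limma-voom). Stk10, a kinase that phosphorylates ezrin, radixin and moesin, was higher in muscle, at 25.7, 18.3 and 21.0 CPM against 3.12, 7.95 and 9.50 CPM (-1.66 ± 0.44, adjusted p = 0.042). The call of Stk10 held in 6 of 15 alternative fits, with an adjusted p from 0.0077 to 0.15 over them. It was lost without muscle replicate 1 or 3 and without epithelium replicate 1 or 3.

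Polarised trafficking had the largest changes outside the members, with 5 of 15 genes higher in epithelium and 1 in muscle. Rab25, the epithelial relative of Rab11 in apical recycling, had 0.418, 0 and 0.228 CPM in muscle and 47.9, 30.9 and 44.8 CPM in epithelium (log2 fold change 7.48 ± 0.69, adjusted p = 0.00045, edgeR). Ap1m2, the epithelial subunit of the AP-1 adaptor for basolateral sorting, was higher by 7.11 ± 0.68 on that scale (adjusted p = 0.00049). Mal2, a membrane protein of apical transcytosis, had 6.70 ± 0.83 (adjusted p = 0.0015). Without muscle replicate 2, which held 2.55 CPM of Mal2 against 0.228 and 0.329 in the other muscle libraries, the value was 8.43, and with limma-voom it was 7.60. Over 15 alternative fits the value of Mal2 ran from 6.20 to 8.53 and that of Ap1m2 from 6.62 to 7.69. That of Rab25 ran from 7.01 (without muscle replicate 2) to 8.15 (without muscle replicate 1). In muscle these 3 genes stood at 0% to 2.54% of their epithelial mean, Rab25 with no count in muscle replicate 2.

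The other called genes of this list were Rab3ip (2.55 ± 0.39, adjusted p = 0.0038, edgeR) and Stx3 (1.34 ± 0.26, adjusted p = 0.011), both named after their values were seen. The call of Stx3 was lost without epithelium replicate 1 (adjusted p = 0.051). Rab3ip encodes Rabin8, the exchange factor for Rab8, and Stx3 an apical fusion protein. Rab8b was higher in muscle (-1.23 ± 0.30, adjusted p = 0.033), and of the 6 leave-one-out fits only that without muscle replicate 2 still called it, the others giving adjusted p-values of up to 0.12. The widely used genes Rab11a (-0.61 ± 0.25, adjusted p = 0.19) and Rab8a (0.08 ± 0.28, adjusted p = 0.95) did not pass.

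Likeness of pattern was measured by Pearson correlation of log2 CPM over the 6 libraries, over 9361 genes whose average log2 CPM reached 4. The genes most like Crb3 were Gpr56 (r = 0.9996), Map7 (0.9993) and E030019B13Rik (0.9992). Each had its own log2 fold change toward epithelium, 7.01, 3.84 and 8.17. Those most like Scrib were Nrip1 (0.9715), Eps15l1 (0.9681) and Urm1 (0.9635), with log2 fold changes of 0.13, 0.10 and 0.08. These values describe 6 libraries in 2 groups, which share depth and background counts, and for Crb3 they rest mostly on the distance between the groups.

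The calls of the members held under the alternatives that were run. Each of the 6 called genes passed an adjusted p under 0.05 in all 15 alternative fits, with a log2 fold change from 7.61 to 9.08 for Crb3, 4.35 to 4.74 for Ezr, 3.70 to 5.09 for Llgl2, 2.54 to 3.19 for Prkci, 2.25 to 3.09 for Prkcz and 2.22 to 2.60 for Pard6b. The 4 other genes passed in none of them. Within the 4 libraries of the later header date, 6 members were again called, all higher in epithelium. With 1 muscle and 1 epithelial library, the earlier date could not be tested alone.

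**Figure D5:**
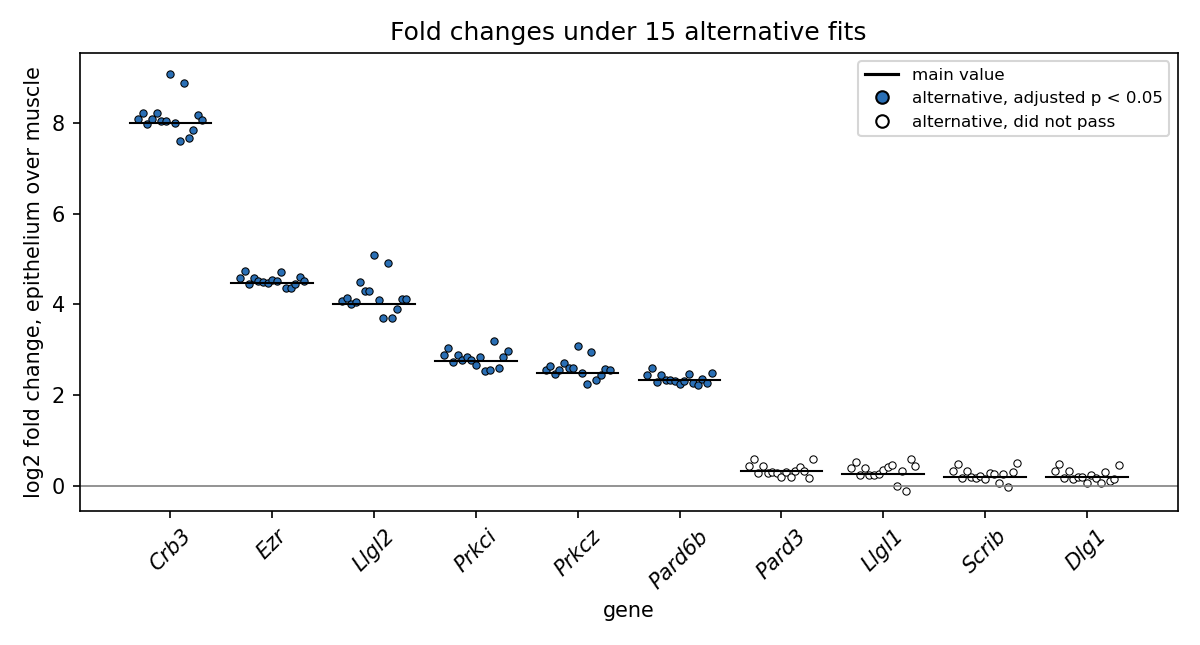
Log2 fold change (epithelium over muscle) of each polarity gene under 15 alternative fits (points, filled where the adjusted p was under 0.05) and in the fit reported above (bar). All points of the 6 called genes are filled, from 2.22 for Pard6b up to 9.08 for Crb3, and all points of the 4 other genes are open and near 0.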

How the data were processed

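Per the labels' protocols, sorted cells were lysed in Trizol, SMART-Seq gave cDNA from small amounts of RNA, and Nextera XT gave the libraries. The authors deposited whole-number counts per gene symbol, not normalized. Per the submitters' processing notes, Trim Galore, Bowtie2, Cufflinks, DESeq and build mm10 were used, and the counting program, annotation and filters are not given in the sources used here. Counts of at least 1 and under 20 were even in 73.8% to 79.6% of cases per library, against 49.4% to 50.6% of counts of 100 or more; the cause was not tested, and a low count may not stand for that many independent fragments. Strand is not kept by such kits in standard use, and counts include PCR copies.

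Columns were matched to samples by the tissue line of the file headers. In R 4.3.3 with edgeR 4.0.16, genes were filtered with filterByExpr (19375 of 23478 tested), scaled by TMM and tested by the two-sided quasi-likelihood test (robust), with p-values adjusted over all tested genes by Benjamini-Hochberg. SE was derived from the test statistic. Alternatives used DESeq2 1.42.0, limma 3.58.1 (voom), other scalings, no filter, header date, a background covariate, the replicate number and each library left out. The main edgeR fit, the fit with the replicate number, voom and DESeq2 were tested on simulated data, and the other alternatives were not. The simulated data had the same dispersion for all genes and no differences in header date or background counts between libraries. How the fits behave under such differences was not tested. Positions and exon lengths are from GENCODE M21 (GRCm38, the same assembly as mm10) and promoters from RefSeq. 3 list genes were matched through another symbol. The paralogue ratios added 0.5 counts to each count. The genes named are all 10 members, up to 3 called genes per direction in each other list, the paralogues and the 3 genes most like Crb3 and Scrib, and others give context. The members and lists were chosen with earlier results of these data known.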

Additional observations from a re-analysis of the deposited data

How the results depend on the processing

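The calls of all 10 members stayed on their side of the threshold in every alternative run, the stricter threshold of 0.01 included, for which 6 were again called. Signs turned without epithelium replicate 1 for Llgl1 (-0.11, range without a library -0.11 to 0.60) and Scrib (-0.034, range -0.034 to 0.50), neither of which was called. Among the paralogue ratios, Prkci over Prkcz turned to -0.30 without muscle replicate 2 (range without a library -0.30 to 0.72), and Pard3 over Pard3b to 0.01 without muscle replicate 2 and 0.055 without epithelium replicate 3 (range -0.10 to 0.055). Both had overlapping groups. The other 6 ratios kept their sign.

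Counts over all genes moved more. Genes higher in epithelium (797) were 1439 with library size only, 1585 with DESeq2, 1222 with the background covariate and 404 at an adjusted p under 0.01. Without a library they ranged from 514 (muscle replicate 1) to 918. Genes higher in muscle (1274) were 1954 with DESeq2, 2054 with the header date as a term and 579 at 0.01. Without a library they ranged from 570 (epithelium replicate 3) to 1655. The share of calls higher in epithelium was 38.5%, and 58.0% with library size only, where the median of all genes was 0.33 in place of 0.10. The causes were not tested. Of the 55 other polarity genes, 6 in place of 11 were higher in epithelium at 0.01. Those higher in muscle, 2, were 1 with RLE size factors and 1 with library size only, 5 with DESeq2, 4 with the header date as a term, 4 with the background covariate and 0 at 0.01. They were 0 to 2 without a library, with 0 without muscle replicate 1 or 3 or epithelium replicate 1 or 3.

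Labels give both groups the numbers 1 to 3. Deviations from the group means correlated at 0.592, 0.729 and -0.569 for the same numbers, so the numbers were not taken to pair the libraries. With the replicate number as a block 6 members were again called (highest adjusted p 0.014, Llgl2), and 10 and 2 of the other polarity genes. Lrrc1 (adjusted p = 0.054), Podxl (0.065) and Stk10 (0.072) lost their call. Muscle replicate 3 and epithelium replicates 1 and 3 did not correlate best with their own number.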

Other observations

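Epb41l5 belongs to a family of FERM proteins, the protein 4.1 relatives, which share their membrane-binding domain with ezrin. The family was looked at after its values were seen. In edgeR, Epb4.1l3 (log2 fold change 1.26 ± 0.30, epithelium over muscle, adjusted p = 0.028) and Epb4.1l4a (1.92 ± 0.49, adjusted p = 0.039) were higher in epithelium, as was Epb4.1l5. Epb4.1l2 was higher in muscle, with 249.5, 169 and 242 CPM in muscle replicates 1 to 3 and 63.2, 63.7 and 66.7 CPM in epithelium replicates 1 to 3 (-1.77 ± 0.24, adjusted p = 0.0023). Epb4.1l4b (2.89 ± 0.98, adjusted p = 0.11), Epb4.1 (0.88 ± 0.35, adjusted p = 0.17) and Epb4.1l1 (0.38 ± 0.39, adjusted p = 0.77) did not pass.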
